A study of Oryza sativa Japonica Group with 20 samples.

Results

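A group of 116 genes had more RNA in rice seedlings without SLR1 than in wild type, and less RNA in wild-type seedlings given gibberellin (GA) than in untreated ones. They were chosen from measured values. A gene had to be listed in the tables of both experiments with an overall mean of 20 or more normalised reads, which are reads over a size factor of the library, in each. Its mean in slr1 had to be at least 1.5 times that in wild type, and its mean in control at least 1.5 times that after GA. The lowest slr1 library had to lie above the highest wild-type library, and the highest GA library below the lowest control library. Of 34555 genes listed in either table, 30573 were in both and 21097 of these reached the mean of 20. The conditions were met by 117 of those. The choice also left out 4 named loci, of which 1 met the conditions.

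The samples were whole seedlings of Oryza sativa, Japonica group, in 4 groups of 3 libraries. The wild-type group, titled NIP, and the slr1 group, labelled as an SLR1 knockout, had an age of 12 days in the series' design text. The control group, titled CK, was wild type and untreated, and the GA group was wild type given 100 uM GA through the roots for 1 h, with no age stated for either. The kind of mutation in slr1, the number of lines and whether replicates came from separate plants are not stated, so the spread between replicates may be technical. Libraries of the slr1 experiment held 27778578 to 28010807 recovered reads, and those of the GA experiment 17919838 to 20979965. In whole seedlings, fewer cells of a type and less RNA per cell cannot be told apart. The files pair no locus ID with a gene name and the reference table held 0 of the IDs, so genes are given by locus ID without names or roles. The level of SLR1 and the H3K27me3 peaks were for the same reason not analysed here.

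GA is a growth hormone that promotes stem elongation, leaf growth and germination. In rice the GA response is held back by SLR1, a nuclear repressor of the DELLA family. When the receptor GID1 binds GA it also binds the DELLA protein, which is then marked for degradation. Loss of SLR1 and treatment with GA therefore both take the repressor away, the former through the whole life of the seedling and the latter within a short time. The genes described here were higher in slr1 than in wild type and lower after 1 h of GA than in control. How much SLR1 protein the samples held is not given.

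All statements on the 2 comparisons describe the values that chose the members and are given without a test. Among the 21097 genes, 2627 met the slr1 condition for higher levels (12.5%) and 529 met the GA condition for lower levels (2.51%). The 117 genes that met both made up 4.45% of the former and 22.1% of the latter. Other pairs of directions were also filled. Genes higher in both numbered 192, which was 7.31% of those higher in slr1 and 17.8% of the 1077 higher after GA (5.1% of all genes). Genes lower in both numbered 96, which was 3.43% of the 2796 lower in slr1 (13.3% of all genes) and 18.1% of those lower after GA. A further 164 genes were lower in slr1 and higher after GA, 5.87% and 15.2% of their lists.

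The members differed far more from wild type in slr1 than from control after GA. Their ratio of slr1 to wild type ran from 1.503 to 46.3, with a median of 2.66 and quartiles of 1.91 and 4.13. Over all 21097 genes the median ratio was 1.03, with quartiles of 0.80 and 1.27. The ratio of control to GA ran from 1.5003 to 5.31, with a median of 1.69 and quartiles of 1.60 and 1.94. All genes had a median of 1.00 there, with quartiles of 0.89 and 1.11. Ratios of all genes were thus also spread more widely in the slr1 comparison. In slr1 84 members were at least 2-fold higher and 12 at least 10-fold. After GA 24 members were at least 2-fold lower and 2 at least 3-fold. Both ratios reached 2 in 18 members. The slr1 ratio was larger than the GA ratio in 103 members and smaller in 13. Across the 116 members the log2 ratios had a Spearman rho of 0.24 and a Pearson r of 0.30, a description of genes measured in the same libraries and cut at the same thresholds.

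**Figure D1:**
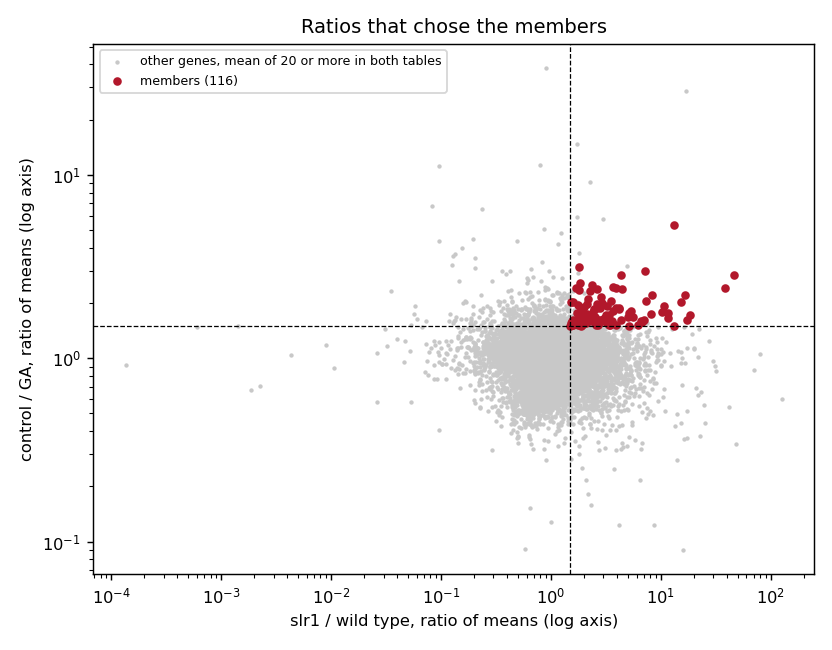
Ratio of group means, slr1 over wild type on the x axis and control over GA on the y axis, both log axes, for genes with a mean of 20 or more normalised reads in both tables (2 genes with an slr1 ratio of 0 are not shown). Red points are the 116 members, which lie right of and above the dashed lines at 1.5 and reach further along the slr1 axis (46.3) than along the GA axis (5.31).

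Every member passed the filter of the test run across all genes, which asked for 10 normalised reads or more in 3 of the 6 libraries of a table. In the group where they were low, 103 members had at least 10 normalised reads in all 3 wild-type libraries and 114 in all 3 GA libraries. LOC_Os08g41960, LOC_Os08g14940, LOC_Os10g35050 and LOC_Os10g36070, described below, did not in wild type. They passed the filter of that experiment through their slr1 libraries. A gene was called at a limma adjusted p under 0.05 with at least a 2-fold change. Of the members 69 were called as higher in slr1, beside 6.57% of all 25132 genes tested there, and 25 as lower after GA, beside 0.996% of 23283 genes. Since the same contrasts chose the members, nothing is read from these shares. A call also asks for a 2-fold change in limma, so a member with a smaller change is uncalled whatever its adjusted p. Both calls fell on 12 members, among them LOC_Os10g35050, LOC_Os12g02080, LOC_Os04g27190 and LOC_Os08g41960. No share of all genes is set beside that count, and nothing is read from it. With edgeR on recovered reads the counts were 70, beside 6.98% of all genes, and 24, beside 1.01%. At the same thresholds the authors' deposited table called 81 members in slr1 (7.05% of the genes with an adjusted p) and 24 after GA (0.821%).

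The member with the largest change in both comparisons, judged by the smaller of its log2 ratios, was LOC_Os10g35050. LOC_Os10g35050 stood at 1.94, 6.39 and 10.2 normalised reads in wild type and 35.3, 25.4 and 184 in slr1, and at 132, 129.6 and 137 in control and 22.5, 22.3 and 30.4 after GA. Wild-type libraries stood at a few reads, slr1 replicate 3 stood far above the other slr1 libraries, and the control libraries lay close together, well above those given GA. The means were 13.2-fold higher in slr1 and 5.31-fold lower after GA (limma log2 fold change 3.17, SE 0.82, in slr1 and -2.38, SE 0.19, after GA). Without slr1 replicate 3 the slr1 ratio was 4.93. LOC_Os12g02080 stood at 35.8, 18.1 and 31.5 normalised reads in wild type and 177, 123 and 319 in slr1, and at 110.4, 123 and 118 in control and 50.3, 37.9 and 29.3 after GA. Like LOC_Os10g35050 it had its highest slr1 library in replicate 3. Its means were 7.24-fold higher in slr1 and 2.99-fold lower after GA (limma log2 fold change 2.76, SE 0.41, in slr1 and -1.59, SE 0.18, after GA).

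LOC_Os04g27190 stood at 301, 509 and 144 normalised reads in wild type and 7506, 11621 and 25028 in slr1, and at 1098, 1046 and 1136 in control and 380.2, 382 and 391 after GA. This gene had the highest slr1 ratio of all members, and its slr1 libraries themselves differed widely between lowest and highest. The mean went from 318 ± 183 to 14718 ± 9163 (SD, n = 3) in slr1, and from 1093 ± 45.3 to 385 ± 6.09 after GA. Means were 46.3-fold higher in slr1 and 2.84-fold lower after GA (limma log2 fold change 5.52, SE 0.55, in slr1 and -1.50, SE 0.06, after GA), and 30.1-fold higher in slr1 without slr1 replicate 3. LOC_Os08g41960 stood at 5.81, 8.52 and 4.07 normalised reads in wild type and 307, 204 and 186 in slr1, and at 32.0, 36.4 and 24.3 in control and 12.9, 11.7 and 13.6 after GA. Here slr1 replicate 1 was the highest and all slr1 libraries lay far above the wild-type ones. The means were 37.9-fold higher in slr1 and 2.43-fold lower after GA (limma log2 fold change 5.04, SE 0.33, in slr1 and -1.20, SE 0.30, after GA).

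LOC_Os08g14940 stood at 8.71, 43.7 and 7.12 normalised reads in wild type and 91.9, 48.9 and 118 in slr1, and at 74.3, 82.0 and 70.9 in control and 23.6, 31.1 and 25.1 after GA. A single wild-type library, replicate 2, reached nearly the lowest slr1 value, so its slr1 ratio of 4.34 rests on ranges that almost touch, while control and GA were well apart. Without wild-type replicate 2 the ratio was 10.9. LOC_Os05g25950 stood at 40.7, 44.7 and 43.7 normalised reads in wild type and 232, 105 and 141 in slr1, and at 47.5, 62.5 and 54.1 in control and 20.3, 30.1 and 16.7 after GA. Its wild-type libraries lay close together, with every slr1 library well above them, and the means were 3.70-fold higher in slr1 and 2.44-fold lower after GA. LOC_Os10g25400 stood at 17.4, 22.4 and 39.6 normalised reads in wild type and 137, 87.1 and 128 in slr1, and at 34.1, 34.5 and 35.5 in control and 13.9, 19.4 and 10.5 after GA. Wild-type replicate 3 was the highest of its group but lay well below every slr1 library, and the means were 4.44-fold higher in slr1 and 2.37-fold lower after GA.

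LOC_Os04g45520 and LOC_Os03g61160 had slr1 libraries that differed greatly from each other. LOC_Os04g45520 stood at 213, 67.1 and 196 normalised reads in wild type and 494, 250.5 and 1113 in slr1, and at 45.4, 69.0 and 67.2 in control and 25.7, 29.2 and 19.9 after GA. The lowest slr1 library was only slightly above the highest wild-type library, and the slr1 ratio of 3.90 was 2.34 without slr1 replicate 3. LOC_Os03g61160 stood at 67.8, 151 and 36.6 normalised reads in wild type and 159, 352 and 1618 in slr1, and at 71.2, 66.2 and 47.6 in control and 29.99, 26.2 and 27.2 after GA. Its slr1 replicate 1 lay just above wild-type replicate 2, and the slr1 ratio of 8.33 was 3.004 without slr1 replicate 3 and 13.6 without wild-type replicate 2. Neither was called in slr1 by limma, and both were called after GA.

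The remaining 3 of these 12 members had smaller slr1 ratios. LOC_Os04g20749 had means of 17.7 ± 7.07 in wild type, 46.2 ± 18.6 in slr1, 37.2 ± 3.38 in control and 15.5 ± 4.14 after GA (SD, n = 3 each). LOC_Os01g61070 had 27.8 ± 7.81, 65.4 ± 25.5, 30.4 ± 4.21 and 12.1 ± 7.21 in the same order. LOC_Os01g43270 had 91.8 ± 18.1, 206 ± 39.6, 40.8 ± 16.7 and 17.6 ± 7.53. Without GA replicate 2 the ratio of control to GA of LOC_Os01g61070 was 3.83 in place of 2.51. Only LOC_Os01g43270 was called by limma in both comparisons. In all 3 the GA mean lay under 20, as it or another group mean did in 24 members, so these means rest on few reads.

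**Figure D2:**
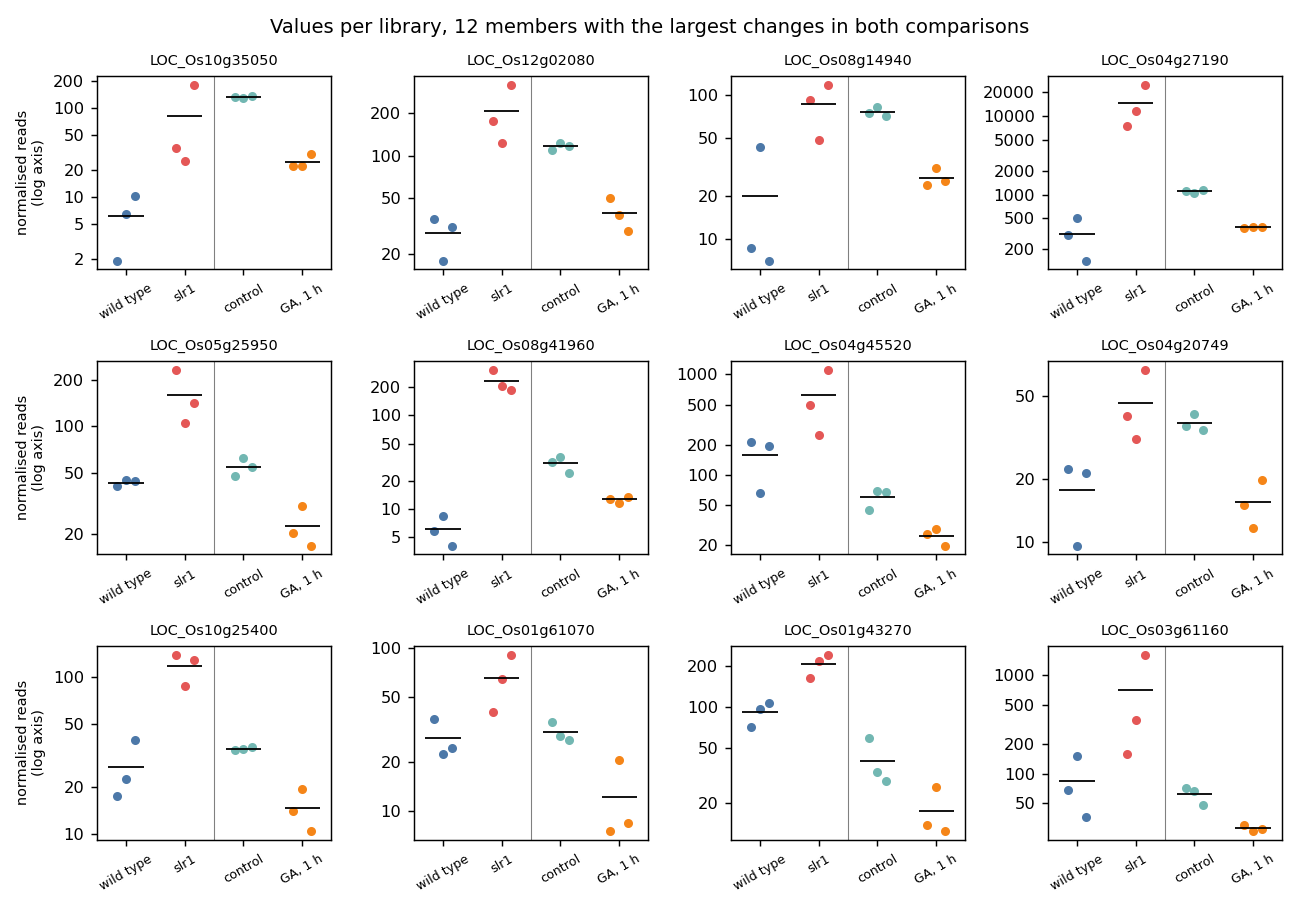
Normalised reads per library (points, log axis) and group means (black lines) for the 12 members with the largest smaller ratio, in wild type, slr1, control and GA (3 libraries each, the vertical line parts the experiments, which were normalised separately). Libraries of slr1 spread widely in LOC_Os10g35050, where they run from 25.4 to 184, while its control libraries run from 129.6 to 137.

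Of the 5 members with the largest slr1 ratios, LOC_Os04g27190 and LOC_Os08g41960 are described above and the other 3 follow. LOC_Os11g13750 stood at 31.0, 14.9 and 13.2 normalised reads in wild type and 258, 383 and 435 in slr1, and at 177, 145 and 153 in control and 95.3, 113 and 68.0 after GA. Every slr1 library was several times the wild-type ones, and the means were 18.2-fold higher in slr1 and 1.72-fold lower after GA. LOC_Os01g24710 stood at 723, 279 and 462 normalised reads in wild type and 7927, 5638 and 11845 in slr1, and at 1577, 1558 and 1629.8 in control and 957, 998 and 989 after GA. This was 17.4-fold higher in slr1 and 1.62-fold lower after GA, with replicates of control and of GA that lay within a narrow band. LOC_Os03g03810 stood at 28.1, 20.2 and 29.5 normalised reads in wild type and 497, 481 and 317 in slr1, and at 59.9, 43.8 and 46.7 in control and 23.6, 21.4 and 23.0 after GA. Its slr1 replicate 3 was the lowest of the slr1 libraries, and the means were 16.6-fold higher in slr1 and 2.21-fold lower after GA, called in both comparisons.

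Besides those above, 3 members were called by limma in both comparisons, and they are named for that reason after their values were seen. LOC_Os06g35520 stood at 676, 1661 and 821 normalised reads in wild type and 2899, 4375 and 3802 in slr1, and at 2658, 2479 and 2555 in control and 1296, 1228 and 1246 after GA. The wild-type libraries differed more than those of control or GA, and means were 3.51-fold higher in slr1 and 2.04-fold lower after GA. LOC_Os10g36070 stood at 4.84, 10.6 and 5.08 normalised reads in wild type and 99.9, 60.7 and 151 in slr1, and at 47.5, 66.2 and 56.0 in control and 18.2, 36.9 and 28.3 after GA. Wild type stood at a few reads and every slr1 library far above it, and means were 15.1-fold higher in slr1 and 2.03-fold lower after GA. LOC_Os10g01844 was 7.39-fold higher in slr1 and 2.06-fold lower after GA, and its slr1 libraries, at 147, 225 and 121, all stood far above its wild-type libraries, at 22.3, 19.2 and 25.4.

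Of the 5 members with the most reads, LOC_Os04g27190 is described above. Reads were not divided by gene length, so no level is compared between genes. LOC_Os01g68300 stood at 3414, 1961 and 1397 normalised reads in wild type and 18223, 32590.4 and 37734 in slr1, and at 819, 809 and 837 in control and 558, 498 and 579.9 after GA. Wild type and slr1 differed 13.1-fold, and the ratio of control to GA was the lowest of these 5, at 1.51-fold. LOC_Os03g18130 stood at 6017, 6943 and 4936 normalised reads in wild type and 8067, 11672 and 12504 in slr1, and at 11275, 11113 and 11115 in control and 4784, 4737 and 4646 after GA. Its change after GA was the larger: 1.80-fold higher in slr1 and 2.36-fold lower after GA (limma log2 fold change 0.84, SE 0.21, in slr1 and -1.24, SE 0.03, after GA). LOC_Os05g03480 stood at 3578, 4238 and 3708 normalised reads in wild type and 5089.9, 7063 and 8309 in slr1, and at 6289, 6173 and 6112 in control and 3277, 3159 and 3098 after GA. It too was lower after GA by more than it was higher in slr1, at 1.95-fold and 1.78-fold.

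LOC_Os04g59190 stood at 3312, 6872 and 4717 normalised reads in wild type and 7209, 18943 and 10751 in slr1, and at 6486, 6369 and 6240.2 in control and 4164, 3978 and 3979 after GA. The highest wild-type library was close to the lowest slr1 library, with means 2.48-fold higher in slr1 and 1.58-fold lower after GA. Neither change was called by limma, and that after GA lay under the 2-fold cut of a call. The members with the fewest reads were LOC_Os07g37210, LOC_Os02g32950 and LOC_Os11g38640. LOC_Os07g37210 had means of 13.4 ± 5.24 in wild type, 29.0 ± 9.55 in slr1, 30.4 ± 5.45 in control and 14.5 ± 5.19 after GA (SD, n = 3 each). Its slr1 replicate 2, at 18.6, was barely above wild-type replicate 1, at 17.4. LOC_Os02g32950 had 9.68, 9.58 and 16.3 in wild type and 45.4, 33.3 and 34.0 in slr1, and 21.7, 29.8 and 35.5 in control and 20.3, 16.5 and 13.6 after GA. In LOC_Os11g38640 slr1 replicate 3 stood at 69.0 and the other slr1 libraries at 22.2 and 21.5, just above the highest wild-type library at 20.2. Its slr1 ratio of 2.87 was 1.67 without slr1 replicate 3. Among the largest GA ratios was also LOC_Os05g37190, 3.16-fold lower after GA, with 49.5, 28.0 and 39.2 normalised reads in control and 22.5, 2.92 and 11.5 after GA. Its GA replicate 2 stood at a few reads only, and without GA replicate 1 the ratio was 5.39.

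The threshold on the ratio cut through a continuous range. Just inside it were LOC_Os12g01350, with ratios of 1.503 in slr1 and 1.5003 for control over GA, LOC_Os10g33170, with 1.87 and 1.5026, and LOC_Os04g43390, with 5.15 and 1.5049. The slr1 ratio of LOC_Os04g43390 was 2.88 without slr1 replicate 3. Just outside, with ranges that did not overlap, were LOC_Os12g06190 with 2.53 and 1.49, LOC_Os03g58020 with 1.49 and 1.53, and LOC_Os09g22000 with 16.2 and 1.49. A gene as strongly higher in slr1 as LOC_Os09g22000 was thus left out over a small difference in its GA ratio. With the ratio at 2 in place of 1.5 the conditions were met by 18 genes.

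The choice made no use of the distance between the experiments, although each untreated group entered it. To set the groups side by side, recovered reads were scaled to an equal total in every library (scaled reads below). Since the experiments were normalised separately, this is a description. By this measure 76 of the 116 members (65.5%) had a control mean at least 1.5 times the wild-type mean of the slr1 experiment, and 8 (6.90%) the reverse. Over all 21097 genes the shares were 14.8% and 43.1%. Among the 2627 genes that met the slr1 condition 43.6% had the higher control mean, and among the 529 that met the GA condition 41.0%. The control libraries lay wholly above the wild-type libraries in 86 members, overlapped them in 21 and lay wholly below in 9, which was 74.1%, 18.1% and 7.76% of the members. The shares of all genes were 21.3%, 19.5% and 59.2%, and 54.5% of the genes that met the slr1 condition and 46.1% of those that met the GA condition had control wholly above.

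Over all genes the median log2 ratio of control to wild type on this scale was -0.47, against 0.94 for the members. When control and GA levels were shifted by this amount so that the median gene matched, 91 members (78.4%) had the higher control mean and 3 the lower, beside 25.4% and 20.8% of all genes. A low wild-type mean favours the slr1 condition and a high control mean favours the GA condition, so these shares are not independent of the choice. Control and wild type were both untreated wild-type seedlings of different experiments, and what differed between the experiments cannot be told apart.

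**Figure D3:**
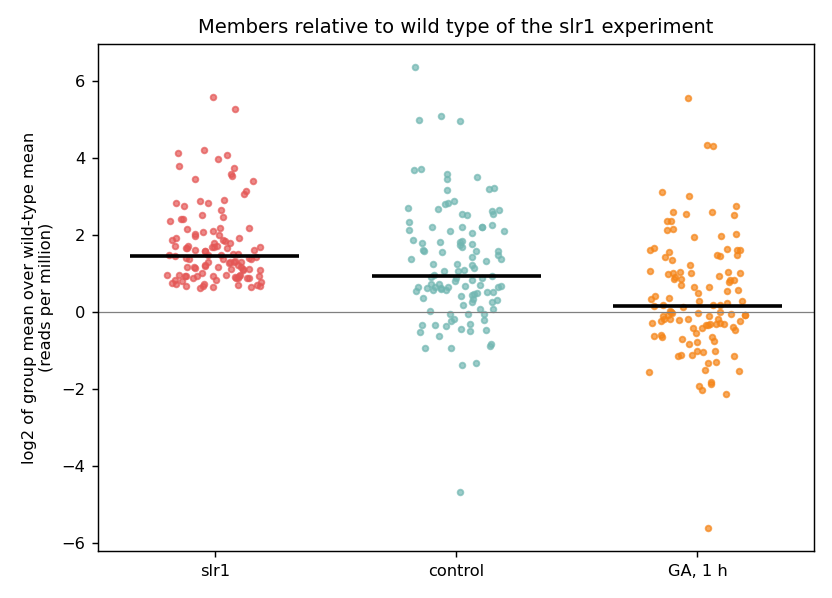
Log2 of the slr1, control and GA group means over the wild-type mean, in reads scaled to an equal library total, 1 point per member and black lines at the medians (1.46, 0.94 and 0.17). Most control points lie above the wild-type level at 0, and the GA points lie on both sides of it.

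The choice puts slr1 above wild type and control above GA, so only wild type or GA could be lowest and only slr1 or control highest. Wild type had the lowest of the 4 group means in 63 members and GA in 53. The highest mean was that of slr1 in 80 members and that of control in 36. In 30 members the order from low to high was GA, wild type, control, slr1, and in 28 it was wild type, GA, control, slr1. For 17 members even the GA mean was above the slr1 mean. With centred levels 25 members had the GA mean above slr1. Without centring, the GA libraries lay wholly above the slr1 libraries in 10 of the 116 members and wholly below in 82. Of all 21097 genes, 3712 had GA wholly above and 12090 wholly below. For comparison, 5419 genes had a mean in slr1 above wild type and a mean in control above GA by any amount. Among them the order GA, wild type, control, slr1 made up 5.96%, beside 25.9% of the members. The order GA, control, wild type, slr1 made up 56.5% of those genes and 19.0% of the members. Members also had to reach the ratio threshold in both comparisons, so these shares are not independent of the choice.

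Single members lay at both ends of this range. LOC_Os03g61150 had 3075, 3449.8 and 2134 normalised reads in wild type and 4781, 7948 and 11217 in slr1, but 76.4, 79.2 and 78.4 in control and 31.1, 48.6 and 40.8 after GA. In scaled reads its wild-type mean was 25.6 times the control mean, which exceeds its ratios within either experiment, 2.77 and 1.94. At the other end LOC_Os10g05130 had 2.90, 7.45 and 6.10 in wild type, 66.6, 42.1 and 82.5 in slr1, 333, 297 and 293 in control and 166, 177 and 178 after GA. Its control mean in scaled reads was 82.2 times the wild-type mean and 6.81 times the slr1 mean. LOC_Os02g52930, LOC_Os10g35050 and LOC_Os04g24804 followed, with control at 33.9, 31.5 and 31.1 times wild type. LOC_Os10g05130, LOC_Os02g52930 and LOC_Os04g24804 were singled out after their values were seen.

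The spread between replicates was wide in the slr1 experiment and narrow in the GA experiment. The members' median coefficient of variation was 22.3% in wild type, 29.4% in slr1, 7.27% in control and 11.2% after GA. All 21097 genes had medians of 11.5%, 15.1%, 6.08% and 6.06%. The choice asked for ranges that did not overlap within each experiment, so the members' spread is not independent of it. The median group mean of the members was 99.3 normalised reads in wild type, 287 in slr1, 127 in control and 73.1 after GA, where all genes had 561, 582, 289.7 and 296.

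Among the members' slr1 libraries, replicate 3 was most often the highest. In 82 members (70.7%) slr1 replicate 3 was the highest of the slr1 libraries, compared with 38.7% of all genes, 49.3% of genes that met the slr1 condition and 47.3% of those that met the GA condition. Replicate 1 was the highest in 21 members and replicate 2 in 13. The median log2 ratio of slr1 replicate 3 to its group mean was 0.30 over the members and 0.01 over all genes. It was at least 2 times the mean of the other slr1 libraries in 19 members (16.4%), beside 0.782% of all genes. A high slr1 library raises the slr1 mean and so favours the slr1 condition, and these shares are not independent of the choice. Without slr1 replicate 3 the members' median slr1 ratio was 2.25 and 103 of 116 still had a ratio of at least 1.5. In 12 members leaving it out moved the slr1 ratio by over 1.5 times. Limma then called 52 of 114 members tested in slr1, in place of 69, and 1483 of all 24807 genes tested. Without slr1 replicates 1 or 2 it called 66 and 63 members, beside 1333 of 24727 and 1387 of 24776 genes. Without wild-type replicates 1, 2 or 3 it called 53, 56 and 50, beside 1253 of 24722, 1556 of 24797 and 1181 of 24674 genes. With all libraries it called 1651 of 25132 genes. The calls over all genes thus moved as well, and by differing amounts, so nothing is read from these drops. In wild type, control and GA the share of members with their highest value in any 1 replicate ran from 28.4% to 41.4%.

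The excess of that library was largest in LOC_Os03g61160 and LOC_Os10g35050, in which slr1 replicate 3 was 6.32 and 6.04 times the mean of the other slr1 libraries. LOC_Os07g15959 had 58.6, 60.7 and 181 in slr1 beside 56.2, 56.4 and 49.8 in wild type, and its slr1 ratio of 1.85 was 1.10 without that library. It was chosen for mention after its values were seen. When slr1 replicate 3 was left out and the conditions applied to the other 11 libraries, 109 genes met them, 99 of which were among the 116.

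**Figure D4:**
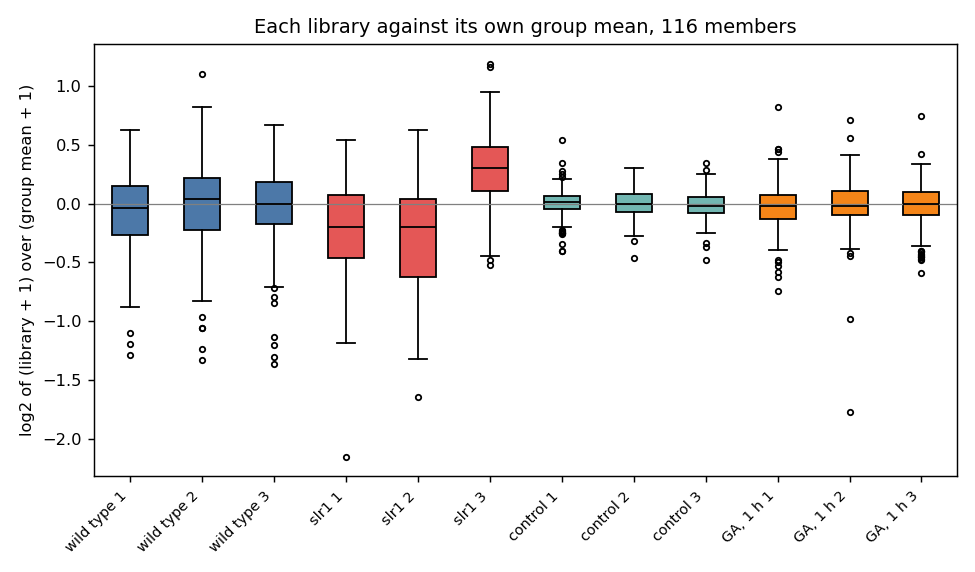
Log2 of each library over its group mean, both with 1 added, for the 116 members (box, quartiles; line, median; whiskers, up to 1.5 times the box; circles, members beyond). The box of slr1 replicate 3 lies above 0, at a median of 0.30, and those of slr1 replicates 1 and 2 are centred on -0.20, while the boxes of control and GA are narrow and centred near 0.

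By their locus IDs, 6 pairs of members (10.3% of the members) had locus numbers no more than 100 apart on the same chromosome. Of all genes with a mean of 20 or more, 99.3% had another gene of that list as near. That list is far denser, so the shares cannot be compared, and clustering of members was not tested. Between the members of 3 pairs no other locus was listed. LOC_Os03g61150 and LOC_Os03g61160 are described above; wild type lay far above control in the former, and their ranges in scaled reads overlapped in the latter. LOC_Os08g08970 stood at 86.2, 220.4 and 120.0 normalised reads in wild type and 301, 265 and 686 in slr1, and at 170.3, 155 and 155 in control and 87.8, 74.8 and 78.5 after GA. Wild-type replicate 2 stood not far below the lowest slr1 library. LOC_Os08g08980 stood at 92.0, 165 and 98.6 normalised reads in wild type and 414, 403 and 375 in slr1, and at 93.9, 117 and 98.0 in control and 57.8, 75.8 and 71.2 after GA. Its slr1 libraries lay close together and far above wild type. The former was 2.93-fold higher in slr1 and 1.99-fold lower after GA, and the latter 3.35-fold and 1.51-fold. The third such pair was LOC_Os10g33170 and LOC_Os10g33190. LOC_Os10g33190 stood at 58.1, 60.7 and 55.9 normalised reads in wild type and 127, 105 and 314 in slr1, and at 569.8, 502 and 511 in control and 348, 314 and 293 after GA. Its slr1 ratio of 3.12 was 1.99 without slr1 replicate 3. Its control mean in scaled reads was 13.1 times that of wild type, beside 2.62 times for LOC_Os10g33170.

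In the other 3 pairs the loci between did not meet the conditions. LOC_Os10g35070 lay beyond LOC_Os10g35060 from LOC_Os10g35050. LOC_Os10g35070 stood at 245, 312 and 347 normalised reads in wild type and 960.0, 522 and 2269.6 in slr1, and at 1932, 2053 and 1846 in control and 1057, 1062 and 1033 after GA. Its slr1 ratio of 4.15 was 2.46 without slr1 replicate 3. Like LOC_Os10g35050 it had its highest slr1 value in replicate 3 and a control mean well above wild type, 9.35 times in scaled reads. LOC_Os10g35060 between them had ratios of 1.05 for slr1 over wild type and 1.10 for control over GA. LOC_Os01g05760 and LOC_Os01g05780 were 8.05-fold and 5.31-fold higher in slr1 and 1.75-fold and 1.80-fold lower after GA, and their slr1 libraries lay close together. LOC_Os01g05760 stood at 6.78, 13.8 and 19.3 normalised reads in wild type and 108, 98.8 and 115 in slr1, and at 35.1, 44.7 and 45.7 in control and 18.2, 23.3 and 30.4 after GA. The locus between, LOC_Os01g05770, was 5.98-fold higher in slr1 with a control over GA ratio of 1.17. LOC_Os09g09930 and LOC_Os09g10010 were 4.35-fold and 3.87-fold higher in slr1 and 1.62-fold and 1.89-fold lower after GA, and the 3 loci listed between them had slr1 ratios from 1.18 to 1.32. Whether neighbours are copies that share reads, or overlap on opposite strands, was not tested, and no source names the strand setting of the counting.

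Members lay on all 12 chromosomes by their IDs. Chromosome 10 held 14 of the 116 (12.1%), beside 5.15% of the genes with a mean of 20 or more, and 4 of these 14 loci belong to the neighbouring pairs. Chromosome 7 held 3 members (2.59%, beside 7.47%). Chromosome 1 held 17.2% of the members and 14.2% of those genes, and chromosome 3 held 12.1% and 13.2%. These shares are a description of the chosen genes.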

How the data were processed

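RNA was measured in 12 libraries of rice seedlings. HISAT2, featureCounts 2.0.0, DESeq and DESeq2 1.38.3 are named, per the submitters' processing notes, and no build, annotation or strand setting is stated in the sources used here. The deposited values of a library are a signal: each gene's reads over that library's size factor, and the authors also deposited their mean signal, log2 fold change, test statistic (a score) and p-value with its adjusted form. Every value (100%) was within 0.01 of a whole multiple of the library's step, so reads were recovered and also scaled to an equal library total. For slr1 replicate 1 this is less certain, since its step is close to 1, and its total, 28010807, and the edgeR and TMM values rest on it. Scaled reads do not depend on the step. 0 of 34555 IDs matched the RefSeq table.

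The rule was applied to the deposited values. limma 3.58.1 (R 4.3.3, trend) ran on log2(value + 1), which understates changes of low genes, with Benjamini-Hochberg adjustment over all genes of a table; edgeR 4.0.16 (quasi-likelihood, TMM) on recovered reads was an alternative. The scripts were checked on simulated counts.

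Members, lists and tests were chosen with earlier results of these data known. Genes were named by rank: the 12 largest by the smaller ratio, the 5 largest by either ratio, the 5 highest and 3 lowest by mean reads, neighbouring loci, and those nearest the threshold; all other names are marked. Same-numbered libraries were not paired by any label. H3K27me3 peaks were not used here.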

Additional observations from a re-analysis of the deposited data

How the results depend on the processing

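The number of members was 118 with TMM-scaled reads (115 of the 116 among them), 140 and 78 with a lowest mean of 10 and 50, and 157 without the condition on ranges. It moved to 18 with a ratio of 2, to 408 with a lowest ratio midway between 1 and 1.5, and to 37 when, as a replicate block, a ratio of 1.5 was asked of every same-numbered pair, which by construction is stricter. Without 1 library it ran from 109 to 135, with 99 to 114 of the 116 kept.

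Members called in slr1 numbered 69, between 64 and 81 under the other settings and 50 to 66 without 1 library. Over all genes the calls numbered 1651, 1529 to 2014 and 1181 to 1556. Members called after GA numbered 25, between 18 and 25 under the other settings and 21 to 27 without 1 library. Over all genes these calls numbered 232, 163 to 392 and 163 to 255. The counts over all genes thus moved as well, and nothing is read from the changes in members called. With a replicate block the members called were 64 and 25, beside 1529 of 25132 and 227 of 23283 genes. Deviations of same-numbered libraries correlated at 0.09, 0.19 and -0.16 in the slr1 experiment and at -0.01, -0.03 and -0.02 in the GA experiment. No label pairs these libraries, and deviations from means of 3 libraries cannot decide whether they were handled together. The 76 members with a higher control than wild-type mean were 91 with centred levels and 75 to 78 without 1 library, and the 82 with slr1 replicate 3 highest were 81 with TMM-scaled reads; these alternatives were chosen after seeing the data. Low reads limit the 24 members with a group mean under 20.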
